A study of Mus musculus with 2 samples.

Results

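NRF2, KEAP1 and their partners are the genes that set how strongly a cell answers oxidants and electrophiles. The 10 genes described here, Nfe2l2, Nfe2l1, Keap1, Mafg, Mafk, Maff, Bach1, Sqstm1, Cul3 and Btrc, were chosen by name for this role. Earlier results of these data were known when they were chosen. All 10 were found among the 14197 genes of the deposited table. The study asked through which genes AS (astragalin, a flavonoid of plants) restrains breast cancer cells, and it sequenced RNA of 4T1 cells after 24 h in 20 μM AS or in the vehicle. This mouse mammary tumor line was labelled wild type in both groups, and the sources used here do not say whether the luciferase-labelled derivative of the study was the one sequenced. There was 1 library per condition, so no difference below has a replicate check and no test of AS was possible.

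The NRF2 protein, encoded by Nfe2l2, is a transcription factor of the CNC family that is made all the time and destroyed almost as fast. KEAP1 holds NRF2 for the ubiquitin ligase built on CUL3, and β-TrCP, encoded by Btrc, offers NRF2 to a second ligase. When cysteines of KEAP1 are modified, or when p62, encoded by Sqstm1, occupies KEAP1, NRF2 escapes, pairs with a small MAF protein (MAFG, MAFK or MAFF) and binds the antioxidant response element, a site that the repressor BACH1 also binds with small MAFs. NRF1, encoded by Nfe2l1, is an ER-anchored relative of NRF2 known for inducing proteasome genes. Most of this control acts on protein, which RNA-sequencing does not measure.

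Both libraries were deep, with 44820059 reads on the listed genes for AS and 50723561 for the vehicle, and no gene was listed at 0. The 5 epithelial markers examined, Epcam, Krt8, Krt18, Krt7 and Cdh1, were all in the table. Their summed level was 1628 RPKM (reads per kilobase of exon, scaled to library size) for AS and 2053 RPKM for the vehicle. Cdh1 alone was higher with AS (95.5 and 84.6 RPKM), and the keratins and Epcam were lower, with Krt8 at 371.7 and 539.5 RPKM. Markers of leukocytes summed to 24.1 and 28.3 RPKM, nearly all of it from Cd68, while the defining leukocyte gene Ptprc stood at 0.116 and 0.114 RPKM. Fibroblast markers summed to 4.83 and 4.62 RPKM. The leukocyte marker Adgre1 and the endothelial and adipocyte markers were not in the table. The part of such other cells in the results below was not tested. In such bulk RNA, fewer cells with a transcript and less of it per cell cannot be told apart.

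The antioxidant response element was looked for in the promoters of these genes. In the RefSeq promoters (GRCm38.p6, from 250 bases before to 50 bases after each annotated start), its core TGACNNNGC was searched on both strands. It was found for 4 of the 9 members with a promoter entry, which were Nfe2l2 and all 3 small MAF genes, against 17.0% of the 9680 genes of the table with an entry and 12.4% of all 32851 promoters. The sites are printed here because NRF2 and its small MAF partners are known to bind this element. Each is printed in the direction of the gene with the core in capitals, and in Mafg and Mafk the core lies on the opposite strand, so that it reads reversed and complemented.

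Nfe2l2, chr2:75704865-75704913, minus strand: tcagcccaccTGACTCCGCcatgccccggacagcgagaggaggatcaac

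Mafg, chr11:120633731-120633797, minus strand: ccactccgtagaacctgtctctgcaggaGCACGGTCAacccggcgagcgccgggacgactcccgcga

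Mafk, chr5:139791493-139791535, plus strand: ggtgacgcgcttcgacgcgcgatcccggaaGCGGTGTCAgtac

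Maff, chr15:79346479-79346547, plus strand: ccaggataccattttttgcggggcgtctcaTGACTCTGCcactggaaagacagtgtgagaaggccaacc

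The cores begin 240, 222, 13 and 112 bases before the RefSeq start in that order, and the site of Mafk falls in the first exon of the GENCODE annotation. The Maff site belongs to 1 of its 3 annotated starts. Neither Sqstm1 nor any of the 5 starts of Nfe2l1 held the core in this window, although these were the members with the largest differences between the libraries. Their upstream stretches are shown in lower case for that reason, from the furthest upstream start in the case of Nfe2l1.

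Sqstm1, chr11:50210828-50211070, minus strand: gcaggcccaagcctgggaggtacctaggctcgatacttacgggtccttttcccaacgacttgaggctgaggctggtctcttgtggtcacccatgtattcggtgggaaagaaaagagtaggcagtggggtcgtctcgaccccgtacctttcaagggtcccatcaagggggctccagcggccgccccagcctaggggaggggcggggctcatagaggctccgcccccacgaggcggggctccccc

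Nfe2l1, chr11:96829969-96830218, minus strand: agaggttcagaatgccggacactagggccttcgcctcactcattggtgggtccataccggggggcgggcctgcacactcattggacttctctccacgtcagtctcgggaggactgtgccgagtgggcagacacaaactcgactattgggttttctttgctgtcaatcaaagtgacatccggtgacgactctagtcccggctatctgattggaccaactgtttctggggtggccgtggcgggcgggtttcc

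The composite element of ATF4 and C/EBP proteins, searched as TGATGNAA on both strands, was in none of the 9 promoters, and it was found in 2.56% of the genes of the table with an entry. A match or its absence in these windows says nothing about binding.

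Among the 10 genes, the AS and vehicle libraries differed most in Sqstm1 and Nfe2l1, and the genes of the KEAP1 ligase were at nearly the same level in both. Sqstm1 was 1.81-fold and Nfe2l1 1.78-fold higher with AS, Mafg was 1.41-fold higher, and Nfe2l2 itself was 1.18-fold higher. Keap1, Btrc and Maff had counting intervals that included a log2 fold change of 0. Those of Keap1 and Maff lay wholly below the median of all genes. Beyond a log2 fold change of 1 there were 0 of the 10 members, and 0.972% of all genes, 0.662% higher and 0.31% lower with AS. At the lower threshold of 1.5-fold (0.585 on the log2 scale), 2 members were higher and 0 were lower, while 5.57% of all genes passed it, 3.56% higher and 2.01% lower. The median log2 fold change of the members was 0.25, beside 0.07 for all 14197 genes. Of the 10 members, 8 had a log2 fold change above 0, as did 60.9% of all genes. Btrc, 1 of these 8, was below 0 under TMM scaling (-0.04).

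**Figure D1:**
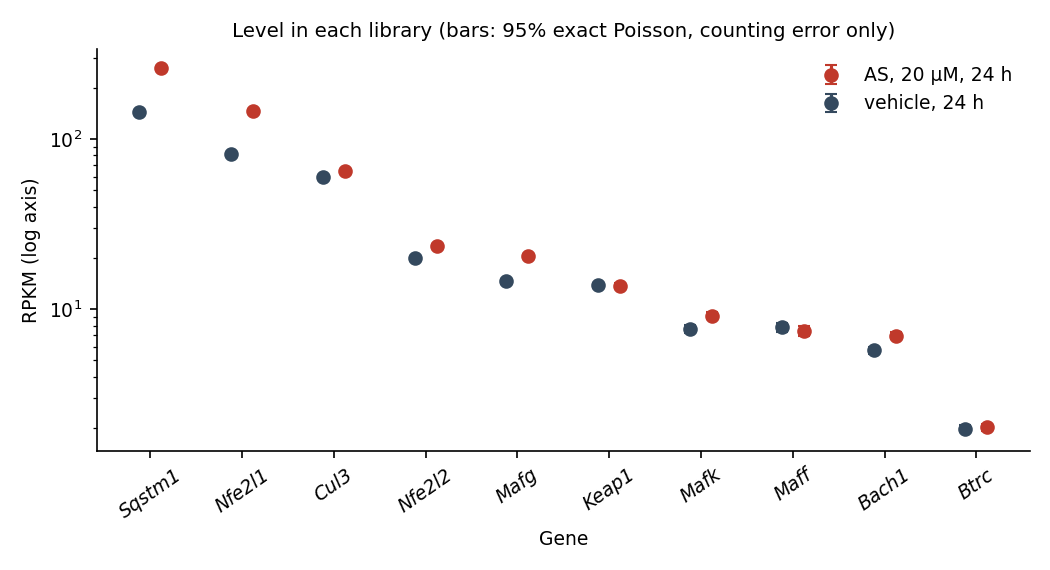
RPKM of the 10 genes in the AS library (red) and the vehicle library (dark) on a log axis, with bars for 95% exact Poisson intervals that cover counting error only and are mostly smaller than the points. The AS point of Sqstm1, at 260.4 RPKM, stands well above its vehicle point at 144.0 RPKM, while the points of Keap1 and Btrc lie side by side.

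Sqstm1 encodes p62, a cargo receptor of selective autophagy whose KEAP1-binding motif competes with NRF2. The gene (ENSMUSG00000015837.15) lies on chromosome 11 from 50199366 to 50210827 on the minus strand of GRCm38 in GENCODE M21. Its level was 260.4 RPKM with AS and 144.0 RPKM with the vehicle, on the basis of 39253 and 24555 reads. AS was thus the higher library by 0.85 on the log2 scale, and the 95% Clopper-Pearson limits of the reads, for counting error alone, were 0.83 and 0.88. By mean level the gene was number 242 of the table. Among the 242 genes at least as abundant as Sqstm1, counting itself, 2 had a log2 fold change at least as high and their median was -0.10. Mrnip, on the opposite strand, shares 580 exon bases with Sqstm1 and was at 4.02 and 3.85 RPKM.

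Nfe2l1, on chromosome 11 from 96817414 to 96829968 on the minus strand (ENSMUSG00000038615.17), stood at 145.4 RPKM (35518 reads) with AS and 81.6 RPKM (22569 reads) with the vehicle. For this NRF1 gene the log2 fold change was 0.83 (counting interval 0.81 to 0.86). Of the 448 genes at least as abundant, 8 had a log2 fold change at least as high, Nfe2l1 and Sqstm1 included, and 11 passed 1.5-fold upward. The table held 6.19 times as much Nfe2l1 as Nfe2l2 per length with AS and 4.10 times as much with the vehicle. This ratio is free of any scaling between the libraries, and it changed by 0.60 on the log2 scale (95% interval of counting error 0.53 to 0.66).

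Nfe2l2 differed far less than its relative. The NRF2 gene (ENSMUSG00000015839.6) lies on chromosome 2 from 75675513 to 75704641 on the minus strand, with 23.5 RPKM from 4000 reads in the AS library and 19.9 RPKM from 3840 reads in the vehicle library. Its log2 fold change of 0.24 (0.17 to 0.30) was above that of 76.0% of all genes. Bach1, which encodes the repressor that competes for the same DNA sites, was at 6.99 RPKM (1941 reads) with AS and 5.72 RPKM (1797 reads) with the vehicle. For Bach1 the log2 fold change was 0.29 (0.20 to 0.38), so activator and repressor transcripts were higher by similar amounts. The ratio of Nfe2l2 to Bach1 was 3.35 with AS and 3.48 with the vehicle. On the log2 scale this is a change of -0.05, and its interval from -0.16 to 0.06 includes no change.

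Among the small MAF genes, Mafg was higher with AS and Maff was not. These proteins have a DNA-binding leucine zipper but no activation domain, so they need a CNC partner to activate a gene. Mafg (chromosome 11, 120625117 to 120633600, minus strand, ENSMUSG00000051510.13) was at 20.5 RPKM (5171 reads) with AS and 14.6 RPKM (4159 reads) with the vehicle. Its log2 fold change of 0.49 (0.43 to 0.55) lay below the 1.5-fold line but above that of 94.3% of all genes. Mafk, on chromosome 5, was at 9.15 and 7.64 RPKM (1603 and 1515 reads), and its log2 fold change was 0.26 (0.16 to 0.36). For Maff, on chromosome 15, the levels were 7.44 RPKM (867 reads) with AS and 7.84 RPKM (1034 reads) with the vehicle, and the log2 fold change was -0.07 (-0.21 to 0.06). Maff is thus the 1 small MAF gene without a higher level in the AS library. All 3 together summed to 37.1 RPKM with AS and 30.1 RPKM with the vehicle, and Mafg made up 55.3% and 48.5% of that sum. Relative to Maff, Mafg changed by 0.57 on the log2 scale (0.43 to 0.71). Mafg shares 124 exon bases with Sirt7 on the same strand, which was at 5.38 and 5.56 RPKM.

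**Figure D2:**
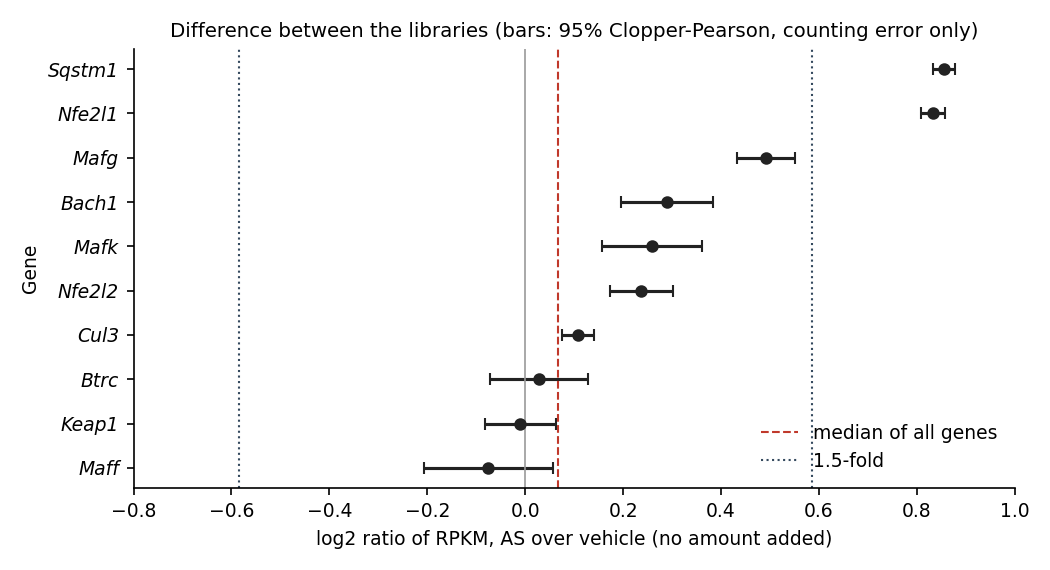
log2 ratio of RPKM in the AS library to that in the vehicle library for each gene, with 95% Clopper-Pearson intervals of the reads, the median of all genes (dashed) and the 1.5-fold lines (dotted). Sqstm1 and Nfe2l1 lie beyond the 1.5-fold line, and the intervals of Btrc, Keap1 and Maff include 0.

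The ligase genes were close to level between the libraries. Keap1, the adaptor and cysteine sensor, lies on chromosome 9 from 21229730 to 21239361 on the minus strand (ENSMUSG00000003308.15), and its level was 13.7 RPKM (2894 reads) with AS and 13.8 RPKM (3298 reads) with the vehicle. Its log2 fold change was -0.01, with a counting interval from -0.08 to 0.06, which lies just below the median of all genes. An antisense gene, Gm16754, shares 510 exon bases with Keap1 and was at 15.3 and 15.9 RPKM, and since it is not stated whether the counting used strand, reads of this pair in the shared bases cannot be told apart. Cul3, the scaffold of the ligase, on chromosome 1, was at 64.5 and 59.8 RPKM (14111 and 14820 reads), with a log2 fold change of 0.11 (0.07 to 0.14). That is 0.04 above the median of all genes. Btrc, on chromosome 19, had the lowest RPKM of the 10 genes but not the fewest reads. It was at 2.02 RPKM (1531 reads) with AS and 1.98 RPKM (1699 reads) with the vehicle. Btrc had a log2 fold change of 0.03 (-0.07 to 0.13). Per length there was thus 0.147 times as much Btrc as Keap1 with AS and 0.143 times with the vehicle. The length is that of all annotated exons, 16908 bases for Btrc and 4693 for Keap1, and the ratio depends on it.

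Of the transcripts set against Keap1 here, that of its competitor p62 differed most. Keap1 itself was nearly level between the libraries (log2 fold change -0.01), so these ratios mostly restate the fold changes of the other genes. Nfe2l1, with a log2 fold change of 0.83, was not set against Keap1. The ratio of Sqstm1 to Keap1 was 19.0 with AS but 10.4 with the vehicle, which is a log2 change of 0.87 (0.79 to 0.94). For Nfe2l2 to Keap1 the ratios were 1.71 and 1.44, a log2 change of 0.25 (0.15 to 0.34). Cul3 to Keap1 was 4.70 and 4.33, a log2 change of 0.12 (0.04 to 0.20). These intervals cover counting error only, and the transcript ratios are not protein ratios.

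The order of the levels was nearly the same in both libraries. Sqstm1 was highest, then Nfe2l1, Cul3, Nfe2l2, Mafg and Keap1, and Btrc was lowest. With AS, Mafk stood above Maff and Bach1, and the counting intervals of Maff and Bach1 overlapped. With the vehicle, Maff stood just above Mafk, with overlapping intervals, and those of Mafg and Keap1 overlapped as well. The step from Mafg to Keap1 was 1.05-fold with the vehicle and 1.49-fold with AS. No other pair of neighbours in this order had overlapping counting intervals.

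Sqstm1, Nfe2l1 and Mafg, the 3 members with the largest differences, are all on chromosome 11, which holds no other member. As a whole, the 1078 genes of the table on that chromosome had a median log2 fold change of 0.05, and 2.88% of them were more than 1.5-fold higher with AS. Over the 20 chromosomes with at least 100 genes, the medians ran from 0.01 to 0.12 and these shares from 1.08% to 4.44%. Chromosome 11 was number 18 by its median.

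**Figure D3:**
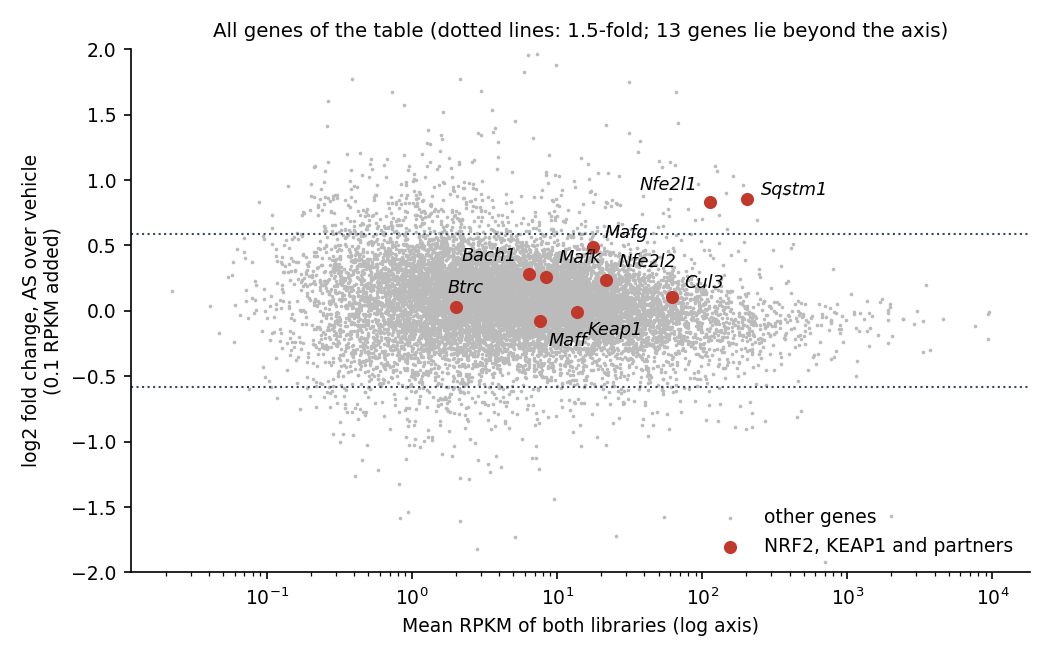
log2 fold change of AS over vehicle against the mean RPKM of both libraries (log axis) for all genes (grey), with the 10 named genes in red and dotted lines at 1.5-fold, and 13 genes beyond the vertical axis not drawn. Sqstm1 and Nfe2l1 stand above the narrow band of abundant genes, and the other 8 lie within the 1.5-fold lines.

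Known targets of NRF2 were also examined, and several were more abundant in the AS library. Of 38 target genes listed, 35 were in the table, and 6 of them lay beyond a log2 fold change of 1 upward and 0 downward, against 0.662% of all genes upward and 0.31% downward. Past 1.5-fold, 15 were higher and 0 lower, against 3.56% and 2.01% of all genes. Their median log2 fold change was 0.47. The list was written with earlier results of these data known, and it is no independent evidence of its direction. Slc7a11, the cystine carrier, and Aldh3a1, an aldehyde dehydrogenase, had the largest log2 fold changes, 3.47 and 2.36. Nqo1, the quinone reductase often taken as the readout of NRF2, was low in both libraries, at 3.36 RPKM (234 reads) with AS and 0.912 RPKM (72 reads) with the vehicle. Its log2 fold change was 1.77, and the reads alone gave a counting interval from 1.49 to 2.28. Gclc, the catalytic subunit of the first enzyme of glutathione synthesis, was at 12.3 and 5.33 RPKM, a log2 fold change of 1.19 (1.10 to 1.31).

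The other target genes past 1, Gsta4 at 1.11 and Gstm1 at 1.03 on the log2 scale, encode glutathione S-transferases, a family with similar copies among which reads may be split. Gstm1 fell below 1 in 4 of 8 alternatives, to 0.97 with TMM scaling and 0.99 with 1 RPKM added, which leaves 5 targets past 1. They and the target genes in the rest of this paragraph, apart from Prdx1 and Ugdh, were picked out after their values were seen. Srxn1 (0.92) and Txnrd1 (0.88), which reduce peroxiredoxins and thioredoxin, came close to 1. Gclm, the regulatory subunit that works with Gclc, was at 0.22, and Hmox1, the heme oxygenase gene that BACH1 represses, at 0.41. Hmox1 had 8.24 RPKM (648 reads) with AS and 6.18 RPKM (550 reads) with the vehicle. The lowest values of the list were those of Prdx1 (-0.51), a peroxiredoxin, and Ugdh (-0.45), which makes UDP-glucuronate, and neither passed 1.5-fold, although Prdx1 did with upper-quartile scaling (-0.59). By role, the median log2 fold change was 0.61 for 12 antioxidant genes, 0.59 for 12 detoxification genes and 0.53 for 5 iron and heme genes. It was 0.15 for 6 genes of NADPH supply or the pentose phosphate pathway, Tkt and Taldo1 included. ATF4 or the aryl hydrocarbon receptor is also known to induce Slc7a11, Sesn2, Aldh3a1 and Nqo1. Without these 4 genes, 3 of 31 targets passed 1 and the median was 0.42. That count falls by construction, because Slc7a11, Aldh3a1 and Nqo1 were themselves past 1. Which factor any of these differences goes with was not tested. Among the 26 targets with a promoter entry, 11 (42.3%) held the TGACNNNGC core, against 17.0% of the 9680 genes of the table with an entry. NRF2 is known to bind this element, so a higher share among its known targets is no evidence about AS.

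**Figure D4:**
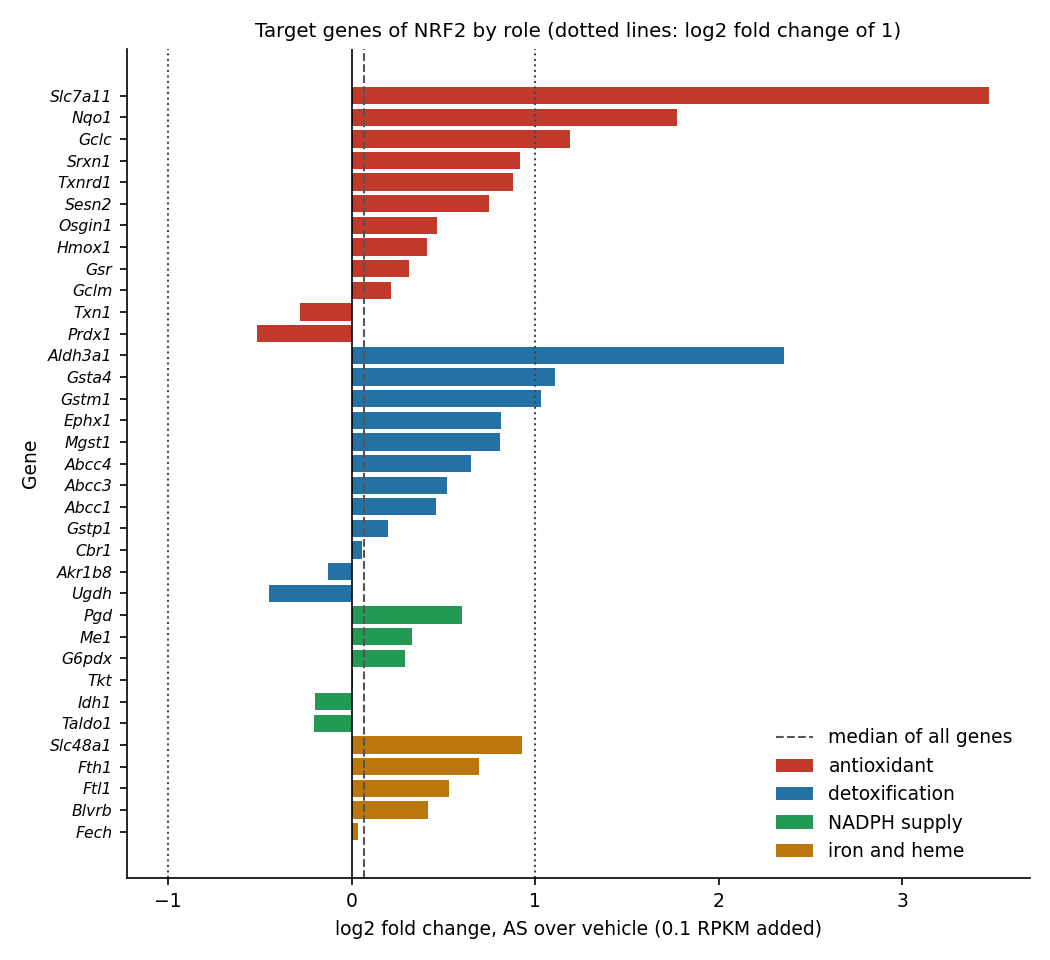
log2 fold change of AS over vehicle (0.1 RPKM added) for 35 target genes of NRF2, coloured by role, with the median of all genes (dashed) and dotted lines at a log2 fold change of 1. Slc7a11, Aldh3a1, Nqo1, Gclc, Gsta4 and Gstm1 reach past 1, and no bar reaches past -1.

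Partners of these regulators were listed by the step they act in. Of 77 partner genes in 8 lists, 74 were in the table, and 0 lay beyond a log2 fold change of 1, against 0.972% of all genes. Their median was 0.08. With 0.1 RPKM added, 0 were more than 1.5-fold higher and 1 was lower, Mcm3, against 3.56% and 2.01% of all genes. Without an added amount, Bach2 (1.87-fold) and Amer1 (1.52-fold) were past 1.5-fold upward as well, so that count depends on the amount added.

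The CUL3 ligase and neddylation list holds the enzymes that attach NEDD8 to cullins and the signalosome that removes it, and the median of its 18 genes was -0.0007. Its highest values were those of Dcun1d1 (0.36), which promotes neddylation, and Cops8 (0.28), and its lowest those of Rbx1 (-0.29), the RING subunit, and Cops3 (-0.23). In the SCF ligase and GSK3 list, where GSK3 phosphorylates NRF2 for β-TrCP, the median of 6 genes was -0.01. Gsk3b was at 0.48 and Fbxw11, the paralog of Btrc, at 0.21, with Rbx1 and Skp1 (-0.25) lowest. Fbxw11 was the more abundant paralog, at 15.7 and 13.5 RPKM (3042 and 2965 reads, beside 1531 and 1699 for Btrc).

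Transcripts of proteins that bind KEAP1 or shield NRF2 from it had the lowest median of the lists, -0.14 over 9 genes. Whether this goes with their tie to KEAP1 was not tested. Mcm3, a subunit of the replicative helicase, was at 42.2 RPKM with AS and 64.5 RPKM with the vehicle (log2 fold change -0.61), and Brca1 was at -0.42. Amer1 (0.57) and Pgam5 (0.22) were highest.

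NRF1 is drawn out of the ER membrane, stripped of its sugars and cut before it acts. The 10 genes of this processing had a median of 0.14. Ngly1, the deglycosylating enzyme, was highest at 0.35 from only 300 reads with AS, followed by Fbxw7 (0.30), while Vcp, the extracting ATPase, was at -0.29 and Nploc4 at -0.06. Ddi2, the protease that cuts NRF1, was picked out after its value was seen, and it was at 4.10 and 3.41 RPKM, a log2 fold change of 0.26. The difference in Nfe2l1 was thus larger than that of any gene in its processing list. It was also above that of 98.6% of all genes, so the same would hold for most short lists.

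Of the CNC and large MAF relatives examined, 3 of 5 were in the table. Nfe2l3, the NRF3 gene, was at 10.2 and 9.32 RPKM, a log2 fold change of 0.13, and so stood above Bach1 and below Nfe2l2 in level. Bach2 and Mafa were under 1 RPKM in both libraries. Bach2, a lymphoid relative of Bach1, was at 0.170 RPKM (76 reads) with AS and 0.0911 RPKM (46 reads) with the vehicle. At this level the 0.1 RPKM added lowers the log2 fold change to 0.50 from 0.90, and the counting interval of the reads was 0.36 to 1.46. Mafa was at -0.15.

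For BACH1, which heme marks for destruction, the median over 6 genes of its ligases, heme turnover and nuclear export was 0.13. Hmox1 and Fbxl17 (0.28) were highest in it and Xpo1 (-0.16), the export receptor, and Hmox2 (0.06) lowest. The 15 listed partners of p62 had a median of 0.14, from Gabarap (-0.16) and Optn (-0.03) to Wdfy3 (0.30) and Gabarapl1 (0.43). Sqstm1 thus differed between the libraries by more than any of its listed partners. Its log2 fold change was also above that of 98.8% of all genes, so few genes of any list could exceed it. NRF2 coactivators had a median of 0.16 over 8 genes, with Ncoa1 (0.40) and Ncoa2 (0.30) highest and Smarca4 (-0.20) and Med16 (-0.11) lowest.

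**Figure D5:**
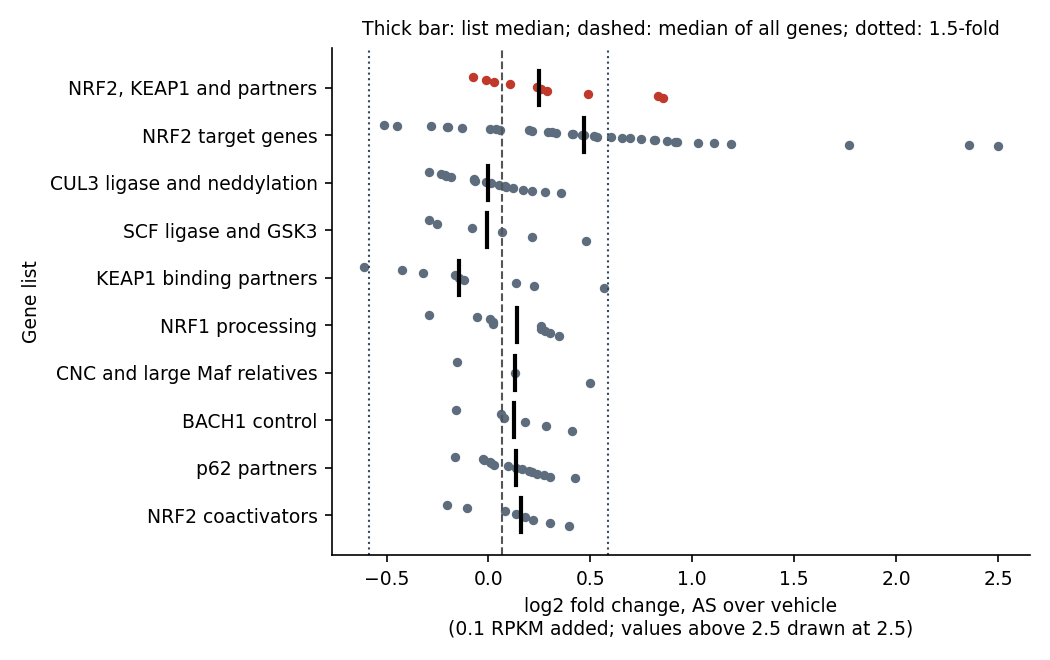
log2 fold change of AS over vehicle for every gene of each list (points) with the list median (thick bar), the median of all genes (dashed) and 1.5-fold (dotted), and with values above 2.5 drawn at 2.5. The target genes of NRF2 reach furthest to the right, and in the 8 partner lists Mcm3 alone lies outside the 1.5-fold lines when 0.1 RPKM is added.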

How the data were processed

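RNA-sequencing was done on 1 library of 4T1 cells with AS and 1 with the vehicle, from a stranded mRNA kit. The submitters' processing notes name fastp 0.23.4, STAR 2.5.3a and featureCounts. They also name the human build GRCh38, which cannot be the one behind mouse genes. The authors deposited 1 table with the RPKM of each library and a log2 of the mean CPM per gene. Its log2 fold changes, p-values and FDR of the authors' own comparison were not used, and the filter on low genes is not given in the sources used here.

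RPKM values multiplied by GENCODE M21 (GRCm38) exon lengths gave whole reads, so library sizes of 44909683 and 50820728 and whole reads for all 14197 genes were recovered (tolerance 0.001 reads). Of 13502 symbols with 1 entry there, 94.2% had the implied length. For the other genes the length was searched near that given by the mean log2 CPM. The recovery was tested on simulated data. Fold changes are log2 ratios after 0.1 RPKM was added, which understates those of low genes. Counting intervals are 95%, from the reads without an added amount. Reads without molecular identifiers are not independent molecules. DESeq2, named in the methods, needs replicates and was not run. Named were all members and, per list, up to 4 genes past 1 in each direction or else the 2 largest changes each way. The result of 1 listed gene is not reported here. Members and lists were chosen with earlier results of these data known. Alternatives were 0 or 1 RPKM added, reads (0.5 added) scaled by upper quartile, by median-of-ratios, by TMM or by their total, a minimum mean of 1 RPKM, and thinning of the deeper library. Python 3.11.15 with scipy 1.17.1 was used.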

Additional observations from a re-analysis of the deposited data

How the results depend on the processing

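With 1 library per condition the error between dishes is unknown, and depth limits only low genes such as Nqo1. A difference in library preparation cannot be told apart from AS either. Rn18s-rs5, a ribosomal RNA gene, was at 1015 RPKM with AS and 3005 RPKM with the vehicle. Ribosomal RNAs were not examined as a set. No paired analysis was possible because each group holds 1 sample, and for the same reason none could be left out. The counts of members past a log2 fold change of 1 (0) and past 1.5-fold (2) and those of targets and partners past 1 stayed within 1.5 times of the reported ones under all 8 alternatives of pseudocount, scaling, filter and depth, although targets past 1 went from 6 to 5 in 4 of them, without Gstm1. The 1.5-fold counts of targets and partners were recomputed after seeing the data. Targets ran from 12 to 15 upward, with 1 downward (Prdx1) under upper-quartile scaling. Partners past 1.5-fold were 3, 2 of them upward, with 0 RPKM added, total scaling or thinning, and 2, 1 of them upward, with TMM, median-of-ratios or upper-quartile scaling, in place of 1 and 0. These are Bach2 and Amer1, which the 0.1 RPKM added had held below the threshold. Chosen in the same way, the target list without Slc7a11, Sesn2, Aldh3a1 and Nqo1 gave 3 in place of 6, by its construction. TMM lowered log2 fold changes by 0.07 and upper-quartile scaling by 0.08 against total counts. Sqstm1 ranged from 0.78 to 0.86, Nfe2l1 from 0.75 to 0.83 and Nfe2l2 from 0.16 to 0.24. Cul3 ranged from 0.03 to 0.11. Cul3, Sqstm1, Nfe2l1, Nfe2l2 and Mafg each lay outside their counting intervals in 3 alternatives. Keap1 did so in 1, at -0.09 with upper-quartile scaling. Of the 10 members only Btrc changed sign, to -0.04 with TMM and -0.05 with upper-quartile scaling.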
